A study of Mus musculus with 31 samples.

Results

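NIPBL binding was compared between resting splenic B cells and an unstimulated B lymphoma line by chromatin immunoprecipitation and sequencing (ChIP-seq). The libraries were chosen by their labels alone and number 5 of the 31 samples of the series, 26 of which came with a peak list: 3 from mature splenic B cells and 2 from CH12F3 cells, none of them stimulated. Both groups are AID-deficient, so the deaminase needed for class switching is missing from spleen and from CH12F3 alike, and both are given the strain C57BL/6. The splenic cells were primary. CH12F3, a mouse B lymphoma line that can be switched in culture, was used at passages 8 to 10 according to its labels, and being 1 cell line its libraries do not sample different animals. In the titles the line is CH12F3NCdel, a name that no label explains. The antibody was anti-NIPBL (Bethyl, A301-779A) in all 5. Libraries that had no part in the choice served as further readouts: NIPBL in splenic B cells after 48 h of aCD40 and IL4 (n = 3) and in CH12F3 after 24 h of anti-CD40, IL4 and TGF-β (n = 2), and Rad21 (Abcam, ab992) in unstimulated splenic B cells (n = 3) and unstimulated CH12F3 (n = 3). For the CH12F3 Rad21 samples 1 label field names splenic cells, whereas source name and title give CH12F3, which was followed. Nothing in the labels says that replicates came from separate animals or cultures; a p-value here therefore reflects the spread between these libraries, part or all of which may be technical.

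NIPBL is the protein that loads cohesin, the ring complex that holds and extrudes loops of DNA, and Rad21 is the subunit that closes the cohesin ring. Peaks of NIPBL in mammalian cells are commonly found at active promoters and enhancers, and those of Rad21 mostly where loops stop, at sites bound by CTCF. In B cells, loop extrusion brings parts of the immunoglobulin heavy chain (IgH) locus together, and the series was designed around its role in class switching. Positions below are 1-based coordinates of mouse genome build mm9. No gene annotation of that build was used, so bins and sites are given by position, and the cell types could not be checked against marker genes.

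The deposited lists were long and made up mostly of small peaks. Resting spleen lists held 1223890, 1090611 and 1113159 peaks in replicates 1 to 3, against 1312137 and 1070647 in CH12F3 replicates 1 and 2. Peaks covered 183, 162 and 153 Mb in resting spleen and 247 and 161 Mb in CH12F3, so the groups overlapped in both measures. Peaks of exactly 51 bp made up 45.9 to 53.7% of the 5 lists. Of 11 measures of number, width and strength none passed the test between the groups (two-sided exact permutation tests, lowest p = 0.2, the smallest that 3 against 2 libraries can give; lowest adjusted p = 0.978). No pair of lists shared more than 0.153% of its peak starts. The lists give no read counts, so sequencing depth is unknown.

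CH12F3 replicate 2 stood apart. Because lists differed in length, comparisons used the same number of peaks per list, the 20000 of highest -log10 p, here called top peaks. Peaks of 51 bp made up 19.55, 30.7 and 35.0% of them in resting spleen, against 11.0 and 43.2% in CH12F3. Top peaks of 500 bp or more numbered 11422, 8487 and 8642 in resting spleen, against 11320 and 3334 in CH12F3. For 51 bp peaks the CH12F3 replicates were at opposite ends, with resting spleen between them. For wide ones CH12F3 replicate 1 was near splenic replicate 1, and CH12F3 replicate 2 was below the other 4 libraries. CH12F3 replicate 2 is also the only one of the 5 whose peak names record a control sample. Among the further readouts, peak names record a control in stimulated CH12F3 replicate 2 and in all 6 Rad21 lists, and in no other stimulated NIPBL list. The part of unstimulated CH12F3 replicate 2 in the results was not tested apart from leaving that library out. Counts without it are given with the main results.

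Small top peaks did not recur between replicates, and wide ones did. Top peaks under 100 bp overlapped a top peak of another replicate of their own group in 0.524 to 0.742% of cases in resting spleen, against 0.762 and 0.493% in CH12F3. For top peaks of 500 bp or more the share was 83.8, 98.6 and 98.2% in resting spleen, against 32.4 and 97.8% in CH12F3. The low value belongs to CH12F3 replicate 1, whose 11320 wide top peaks faced 3334 in replicate 2. A second selection, the 20000 peaks of highest -log10 p among those of 500 bp or more, was therefore added after these values were seen; it is called the wide-peak set below.

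Pairs of splenic lists shared more top peaks than the CH12F3 pair did. A splenic list had 46.1% ± 2.70 of its top peaks (SD over 6 ordered pairs, range 42.6 to 48.5%) overlapped by 1 or more bases in another splenic list. Each CH12F3 list had 20.3 and 20.6% overlapped in the other. Splenic lists shared 39.7 to 48.3% with CH12F3 replicate 1 and 17.0 to 19.0% with CH12F3 replicate 2, in either direction. CH12F3 replicate 1 was therefore closer to spleen than to the other library of its own line. In the wide-peak set the mean shares had another order: 66.5% ± 1.71 within spleen, 59.9% ± 1.59 (2 ordered pairs) within CH12F3 and 55.1% ± 3.46 (12 ordered pairs) between them. There CH12F3 replicate 1 had 58.8% of its peaks overlapped in the other CH12F3 list, against 59.7, 56.5 and 56.7% in splenic replicates 1 to 3. By shared peaks it was thus still slightly closer to 1 of the 3 splenic lists. Coverage of 10 kb bins by the same peaks gave another order. There CH12F3 replicate 1 correlated at 0.725 with the other CH12F3 list, against 0.560, 0.539 and 0.543 with splenic replicates 1 to 3 (Pearson r). Moved by 1 Mb, the peaks of 1 list met those of another in 1.20 to 1.45% of cases on average for top peaks and 3.04 to 4.20% for the wide-peak set. Pairs share lists, so no test was made.

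**Figure D1:**
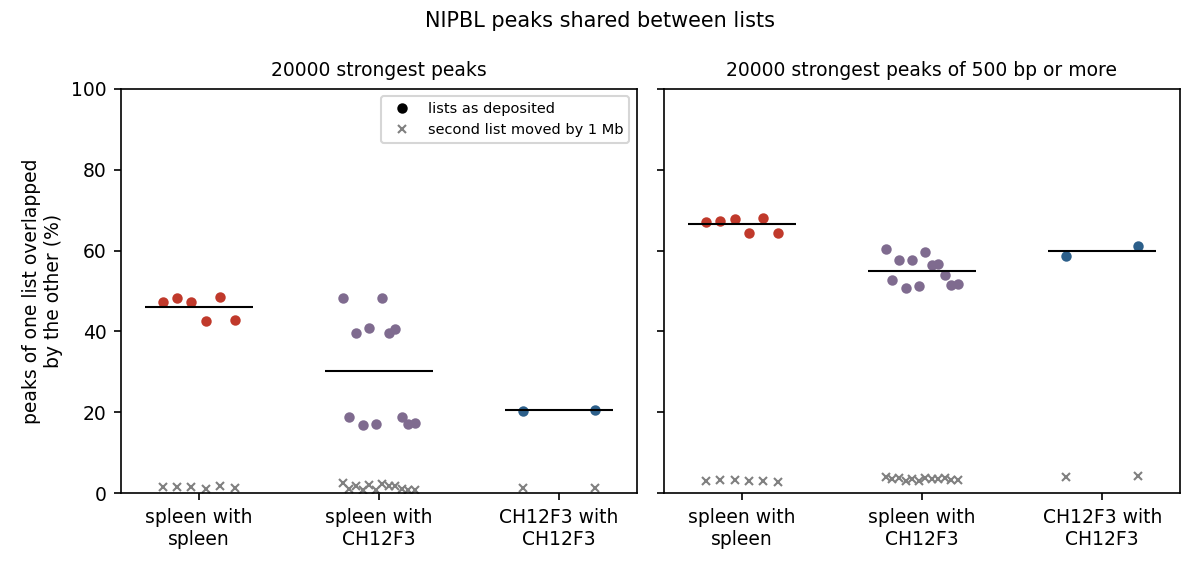
Percent of the peaks of 1 NIPBL list that overlap a peak of another, for each ordered pair of lists (points) with the mean of each kind of pair (lines), for the 20000 strongest peaks and for the 20000 strongest of 500 bp or more. Crosses give the same after moving the second list by 1 Mb. CH12F3 lists share 20.3 and 20.6% of their top peaks with each other, less than the 42.6 to 48.5% within spleen, and 58.8 and 61.0% of peaks of 500 bp or more.

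With top peaks of any width, no region of the genome differed between resting spleen and CH12F3 past the threshold. The measure was the percent of each 10 kb bin covered by top peaks, and 16556 bins covered in 2 or more of the 5 libraries were tested. At an adjusted p under 0.05 (limma with a mean-variance trend, Benjamini-Hochberg), 0 bins were higher and 0 were lower in spleen, which is 0% of bins in each direction; at an unadjusted p under 0.05, 1121 were higher and 683 lower. Coverage of the groups did not overlap in 13.1% of tested bins with spleen higher and 9.05% with spleen lower. Calls depended on the selection: with 10000 top peaks 733 were higher and 150 lower, without CH12F3 replicate 1 there were 1439 and 41, and without CH12F3 replicate 2 there were 0 and 0.

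The bins with the smallest p had a top peak in every library of 1 group and in none or almost none of the other, and none passed the adjustment (adjusted p = 0.111 for each by limma). On chromosome 14, the bin 70470001 to 70480000 was covered to 55.2, 59.8 and 59.0% in resting spleen, against 2.90 and 0% in CH12F3. Top peaks covered 66.5, 55.7 and 58.5% of the bin 11000001 to 11010000 of chromosome 8 in resting spleen, against 0 and 0% in CH12F3. The reverse was seen at 125950001 to 125960000 of the same chromosome, with 0, 0 and 0% in resting spleen and 68.7 and 59.4% in CH12F3. Differences were 56.5 ± 3.88, 60.2 ± 4.82 and -64.1 ± 4.11 percentage points (± SE). In these bins the groups did not overlap, but weaker peaks were there. Counting all deposited peaks, the chromosome 14 bin was covered to 59.0, 68.0 and 64.4% in resting spleen, against 59.8 and 48.6% in CH12F3, which overlap.

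In the wide-peak set, spleen was higher than CH12F3 in 835 of 19642 tested bins, 4.25% of them, and lower in 1114, or 5.67% (adjusted p between 0.0229 and 0.0497 by limma). The median difference was 11.3 percentage points for the higher and -9.18 for the lower bins. A difference of 20 points or more was found in 125 higher and 147 lower bins. Groups did not overlap in any called bin. Over all tested bins this held for 14.3% with spleen higher and 19.6% with spleen lower. Calls and overlap come from the same 5 libraries, so the separation of called bins follows from the choice and is no further support. In 720 of the higher bins neither CH12F3 library had a peak of the set, and in 919 of the lower bins no splenic library did. These bins passed the filter of 2 or more covered libraries through their high group alone. The other group had no spread in them, so the spread between libraries of a group came from the high group only. For the 919 lower bins that group is the 2 CH12F3 libraries. These counts rest on few libraries. No bin was called in either direction without splenic replicate 1, without CH12F3 replicate 1 or without CH12F3 replicate 2; leaving out splenic replicate 2 or 3 gave 1032 and 1006 higher and 694 and 665 lower.

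Among the 10 called bins with the largest rise in spleen, 4 lay on the Y chromosome between 2850001 and 2900000. Their coverage was 63.3 to 91.8% over the 3 splenic libraries, against 0% in both CH12F3 libraries. The bin 2880001 to 2890000 had 91.8, 75.6 and 89.6% in resting spleen, against 0 and 0% in CH12F3, a difference of 85.7 ± 6.16 points (SE; adjusted p = 0.0229 by limma, 3.80e-09 to 0.944 over 19 settings). Stimulated cells gave 97.6, 87.1 and 97.8% in spleen, against 0 and 0% in CH12F3, and Rad21 wide peaks covered 96.6, 100 and 68.7%, against 0, 0 and 0%. Every splenic library was high there in wide peaks and every CH12F3 library had none, for both antibodies. All deposited NIPBL peaks covered 91.8, 84.8 and 89.6% of the bin in resting spleen, against 0 and 1.44% in unstimulated CH12F3. CH12F3 thus had next to no peak of any strength there, and all deposited Rad21 peaks covered 0, 0 and 0% in it. Whether CH12F3 carries this DNA was not tested. Rad21 top peaks of any width covered 0, 100 and 0.62% in resting spleen, against 0, 0 and 0% in CH12F3, which overlap.

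Other risen bins lay on autosomes. On chromosome 8 the bin 74840001 to 74850000 had 61.3, 57.8 and 48.9% in resting spleen, against 0 and 0% in CH12F3. The groups stood apart by 56.0 ± 4.58 points (adjusted p = 0.0235 by limma, 0.00279 to 0.464 over 24 settings). Rad21 wide peaks covered 62.8, 53.4 and 57.3% of it in resting spleen, against 0, 0 and 0% in CH12F3, so that cohesin and its loader peaked in the same bin in spleen; among the Rad21 top peaks none of the 6 libraries had one there. At 11000001 to 11010000 the difference was 62.0 ± 4.28 points in the wide-peak set (adjusted p = 0.0229 by limma, 0.000475 to 0.464 over 24 settings). Rad21 depended on the peaks counted in that bin. No library had a Rad21 top peak, and wide peaks covered 0, 0 and 26.7% in resting spleen, against 0, 0 and 0% in CH12F3, which overlap. With all deposited Rad21 peaks it was covered to 59.2, 36.8 and 37.9% in resting spleen, against 0, 0 and 0% in CH12F3.

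Bins 19940001 to 19950000 and 19970001 to 19980000 of chromosome 8 also rose in NIPBL, and wide Rad21 peaks overlapped between the cells in both. The first had 94.7, 89.1 and 91.2% in resting spleen, against 27.7 and 18.1% in CH12F3 (68.8 ± 4.87 points, adjusted p = 0.0229 by limma, 3.40e-09 to 0.944 over 24 settings). With equal covered length per list the direction turned, to -8.54 points. Rad21 wide peaks covered 100, 100 and 96.1% in resting spleen and 93.2, 100 and 97.9% in CH12F3. In the second bin, wide NIPBL peaks covered 93.3, 88.4 and 92.7% in resting spleen, against 21.7 and 0% in CH12F3, and wide Rad21 peaks 100, 69.2 and 91.7% in resting spleen, against 80.5, 93.7 and 86.0% in CH12F3. Rad21 top peaks of any width ran the other way there, with 0, 0 and 0% in resting spleen, against 11.4, 14.4 and 8.21% in CH12F3 (-11.3 points, adjusted p = 0.0066 by limma).

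The largest fall in spleen was at 125950001 to 125960000 of chromosome 8. Wide peaks covered 0, 5.75 and 0% of it in resting spleen, against 68.7 and 58.9% in CH12F3. Spleen was lower by every library, with a difference of -61.9 ± 4.16 points (adjusted p = 0.0229 by limma, 0.000368 to 0.464 over 22 settings). Stimulated cells gave 9.43, 32.6 and 9.03% in spleen, against 61.6 and 64.6% in CH12F3. Rad21 top peaks covered 0, 0 and 0% in resting spleen and 35.5, 24.0 and 25.9% in CH12F3 (-28.4 points, adjusted p = 0.0066 by limma), so both antibodies were lower in spleen there. With all deposited peaks NIPBL covered 33.8, 34.8 and 22.6% in resting spleen and 75.5 and 63.6% in CH12F3.

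Other fallen bins differed in how far their calls held and in Rad21. The bin 114030001 to 114040000 of chromosome 12 had 0, 0 and 0% in resting spleen, against 55.6 and 35.8% in CH12F3 (-45.7 ± 6.19 points, adjusted p = 0.0282 by limma, 0.00392 to 0.999 over 20 settings). It lies outside the IgH region described below, toward lower coordinates. On chromosome 7, the bin 106580001 to 106590000 had 0, 0 and 0% in resting spleen and 41.8 and 38.4% in CH12F3 (-40.1 ± 1.93 points, adjusted p = 0.0229 by limma, 0.00588 to 0.0503 over 8 settings), and no Rad21 wide peak in any of the 6 libraries. All deposited Rad21 peaks covered 0, 2.64 and 0% of it in resting spleen, against 0, 0.51 and 5.33% in CH12F3. The bin 88780001 to 88790000 of chromosome 6 had 0, 0 and 0% in resting spleen and 52.2 and 27.5% in CH12F3 (-39.8 ± 7.58 points, adjusted p = 0.0445 by limma, 0.0103 to 0.123 over 8 settings). Its Rad21 wide peaks overlapped between the cells, with 12.7, 9.16 and 0% in resting spleen, against 17.0, 6.00 and 26.5% in CH12F3. Over the 10 largest falls the differences ran from -61.9 to -39.5 points.

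Called bins seldom formed long runs. The 835 higher bins made 808 runs and the 1114 lower ones 1048; 3 runs of higher and 8 of lower bins held 3 or more adjacent bins, and the longest held 4. At 25220001 to 25260000 of chromosome 7, 4 bins had a mean coverage of 38.7, 38.1 and 35.4% in resting spleen, against 3.69 and 1.395% in CH12F3. At 123380001 to 123420000 of chromosome 8, 4 bins had 0, 0 and 0% in resting spleen, against 19.8 and 12.7% in CH12F3. These are among the regions where the groups were separated over more than a single bin.

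Libraries that had no part in the calls showed the same direction at the called bins as a whole. Over all 835 higher bins, wide NIPBL peaks of stimulated cells covered 11.1, 12.2 and 12.3% in spleen, against 2.26 and 2.10% in CH12F3. Rad21 top peaks covered 5.73, 5.83 and 4.13% in resting spleen, against 1.03, 0.896 and 1.18% in CH12F3. The 2 kinds of cells did not overlap in either readout. Over the 1114 lower bins, stimulated NIPBL was 3.60, 4.31 and 4.22% in spleen and 8.86 and 7.50% in CH12F3. Rad21 there was 1.62, 1.66 and 1.01% in resting spleen and 2.03, 1.995 and 2.47% in CH12F3, groups that lie close together but do not overlap. Over all 19642 bins tested, Rad21 coverage was itself higher in spleen, with 3.48, 3.34 and 2.41%, against 1.62, 1.52 and 1.95% in CH12F3. No test was made on these means.

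Counts of calls ran the same way. Of the 835 higher bins 679 could be tested in stimulated cells, and 368 of them were called higher and 6 lower; in that comparison 7.68% of 20503 bins were higher and 4.28% lower. Of the 1114 lower bins 651 could be tested, with 132 called lower and 10 higher. For Rad21, 314 higher bins could be tested and 128 were called higher and 1 lower, where 10.0% of 24197 bins were higher and 13.8% lower. Of 382 lower bins tested for Rad21, 103 were lower and 13 higher, all at an adjusted p under 0.05 by limma. Whether the difference between spleen and CH12F3 itself differed between resting and stimulated cells was tested over all 4 NIPBL groups. Spleen minus CH12F3 was higher in resting cells in 177 of 27246 bins of the wide-peak set, 0.650% of them, and lower in 349, or 1.28%; with top peaks it was higher in 1 of 30857 bins (0.00324%) and lower in 2 (0.00648%). Bins had to be covered in 2 or more libraries to be tested, and a bin can pass that filter through its high group alone, so these counts describe the tested bins only.

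**Figure D2:**
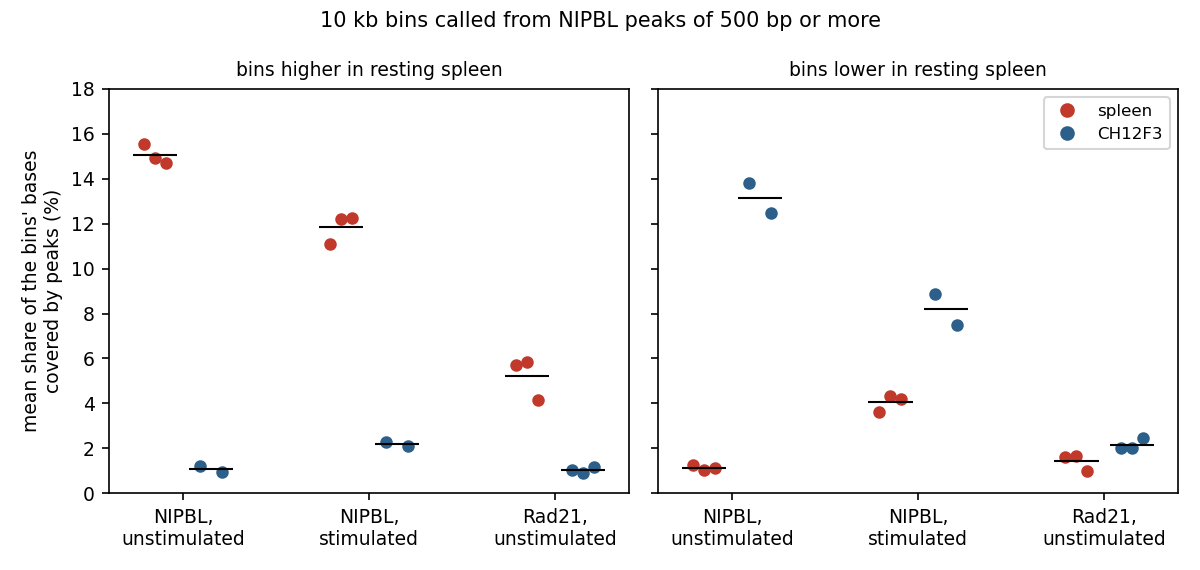
Mean percent of the bases of the called 10 kb bins covered by peaks, per library (points) with group means (lines), for the 835 bins higher and the 1114 bins lower in resting spleen. The unstimulated NIPBL libraries chose the bins; in the stimulated NIPBL and the Rad21 libraries spleen lies above CH12F3 at the higher bins (Rad21 4.13 to 5.83% against 0.896 to 1.18%) and below it at the lower bins (1.01 to 1.66% against 1.995 to 2.47%).

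Merging the top peaks of the 5 lists gave 66066 sites, most of them seen in a single library. A top peak in all 5 lists was found at 3123 sites, in all 3 splenic and no CH12F3 list at 1104, and in both CH12F3 and no splenic list at 391. These are called shared, splenic and CH12F3 sites. Median widths were 1199 bp for splenic, 713 bp for CH12F3 and 1472 bp for shared sites. The numbers follow the lists that are asked for: without CH12F3 replicate 2 there were 1159 splenic and 10028 CH12F3 sites, and without CH12F3 replicate 1 there were 5104 and 16088. In the wide-peak set the counts were 1539, 1449 and 8410. The classes were chosen from these lists, so their NIPBL values are a description.

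Few sites were without any peak in the other cells. A deposited peak of any strength overlapped 99.0 and 96.0% of the splenic sites in the CH12F3 lists and 92.1, 90.0 and 89.5% of the CH12F3 sites in the splenic lists. What differed was rank. Splenic sites had median ranks of 6811, 6943 and 6714 in the splenic lists, against 65690 and 231070 in the CH12F3 lists. CH12F3 sites ranked at a median of 186262, 264538 and 264492 in the splenic lists, against 7629 and 9092 in the CH12F3 lists. In the wide-peak set, splenic sites had median ranks of 16435, 50788 and 51335 in the splenic lists. CH12F3 sites of that set ranked at a median of 27222 and 145678 in CH12F3 replicates 1 and 2, and its shared sites at 5782.5 and 40655.5. The lists differ in length, so ranks describe each list alone.

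Stimulated cells kept the class of many splenic sites. A top NIPBL peak of stimulated spleen was present at 60.1, 59.6 and 62.1% of splenic sites, and of stimulated CH12F3 at 4.71 and 4.17%. At CH12F3 sites the shares were 24.6, 21.5 and 19.9% in stimulated spleen and 33.5 and 26.1% in stimulated CH12F3, which do not overlap but differ by 7.80 points only. Shared sites had a top peak in 97.3 to 97.4% of cases in stimulated spleen and in 80.9 and 64.9% in stimulated CH12F3. With 3 against 2 libraries each difference had p = 0.2 (two-sided exact permutation test; adjusted p = 0.2 over 12 tests), the smallest possible.

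Rad21 followed the same split. Top peaks of Rad21 overlapped 28.1, 24.8 and 35.1% of splenic sites in resting spleen, against 7.52, 7.43 and 8.51% in CH12F3, a difference of 21.5 points. At CH12F3 sites they overlapped 16.9, 17.9 and 18.4% in resting spleen, against 24.6, 27.1 and 28.1% in CH12F3, a difference of -8.87 points. At shared sites the values were 23.3, 21.5 and 31.2% in resting spleen and 15.8, 16.6 and 16.1% in CH12F3, so spleen was higher by 9.15 points also where NIPBL was present in both. Groups did not overlap in any class, with p = 0.1 each (two-sided exact permutation test of 3 against 3, the smallest possible; adjusted p = 0.2). Sites moved by 1 Mb met a Rad21 top peak in 1.36 to 3.84% of splenic and CH12F3 sites. With any deposited Rad21 peak, splenic sites were met in 96.7, 97.0 and 91.7% of cases in resting spleen, against 38.9, 40.5 and 52.7% in CH12F3; the Rad21 lists differ widely in length, from 101405 to 1177389 peaks.

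**Figure D3:**
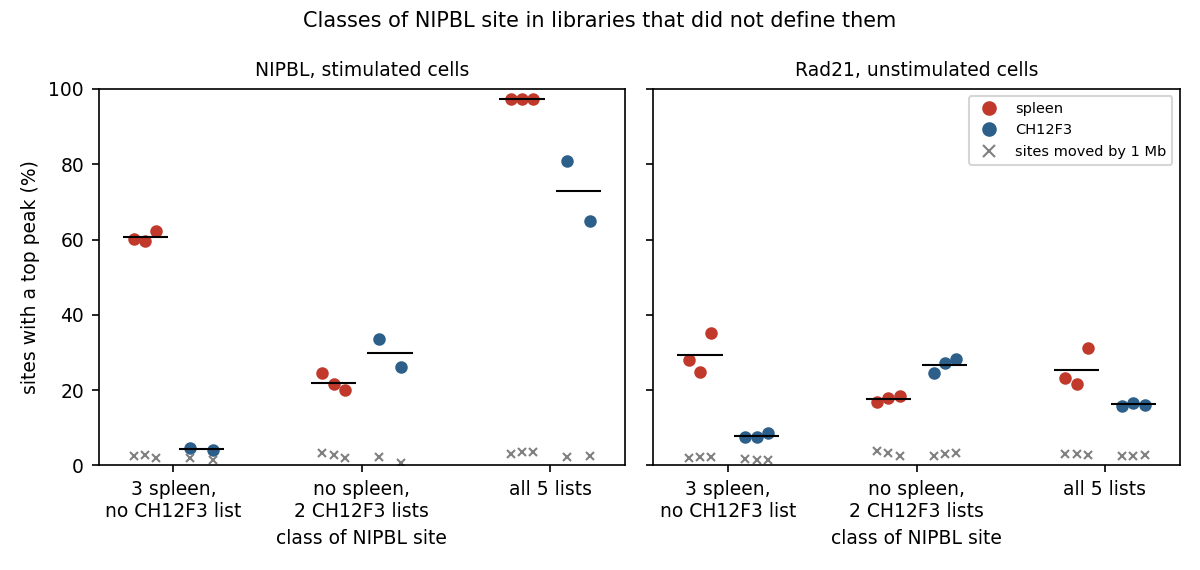
Percent of NIPBL sites of each class that overlap a top peak in libraries that did not define the classes, stimulated NIPBL and unstimulated Rad21, per library (points) with means (lines). Crosses give the same sites moved by 1 Mb. Splenic sites had a Rad21 top peak in 24.8 to 35.1% of cases in spleen and 7.43 to 8.51% in CH12F3.

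The widest splenic site spanned 7742 bp, at 15177431 to 15185172 of chromosome 14. Top peaks covered 92.8, 88.6 and 93.2% of it in resting spleen and 44.4, 40.5 and 41.8% in stimulated spleen, and none of the 4 CH12F3 NIPBL lists or the 6 Rad21 lists had a top peak there. It was followed by sites of 7313 bp at 11003356 to 11010668 of chromosome 8 and 6589 bp at 70474025 to 70480613 of chromosome 14. The last of these had a Rad21 top peak in 2 of 3 splenic and 0 of 3 CH12F3 libraries. The widest CH12F3 site, of 5715 bp at 125949174 to 125954888 of chromosome 8, was covered to 92.3 and 80.1% in CH12F3 and to 84.1 and 85.0% in stimulated CH12F3. No splenic NIPBL or Rad21 list had a top peak in it, and Rad21 covered 44.0, 27.5 and 28.0% of it in CH12F3. Shared sites were the widest of all, up to 38511 bp at 2999990 to 3038500 of chromosome 9, which was covered to 96.8% or more in all 16 libraries. Its largest fold enrichment was 516, 613 and 481 in resting spleen and 271 and 324 in CH12F3. Median fold enrichments of top peaks in the same lists were 10.1, 11.6, 9.91, 7.94 and 10.1. Rad21 lists of both cells reached 510 to 708 there, so this interval was not particular to NIPBL.

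Top NIPBL peaks were spread unequally over chromosomes. Chromosome 14 held 3.77, 3.99 and 3.48% of top peaks in resting spleen, against 5.31 and 5.85% in CH12F3. Chromosome 16 held 3.36, 3.94 and 3.27% in resting spleen and 4.53 and 5.02% in CH12F3. Chromosome X held 2.71, 3.59 and 2.76% in resting spleen, against 1.20 and 2.28% in CH12F3. In these 3 the groups did not overlap, and the share in spleen was 0.671, 0.738 and 1.74 times that in CH12F3. Chromosomes 8, 10 and Y were also higher in spleen without overlap, which makes 4 higher and 2 lower of 21. Each had p = 0.2 (two-sided exact permutation test, the smallest possible; adjusted p = 0.7 over 21 chromosomes). On X the groups overlapped when only 10000 top peaks were taken. The number of chromosomes without overlap was 13 without CH12F3 replicate 1 and 15 without CH12F3 replicate 2. With 1 CH12F3 library left, groups are separated whenever that library is highest or lowest. These 2 counts therefore cannot be set against the count from all 5 libraries.

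The lower shares of chromosomes 14 and 16 were also seen with the other libraries. Rad21 top peaks lay on chromosome 14 in 3.37, 3.36 and 3.33% of cases in resting spleen and 4.71, 4.76 and 4.73% in CH12F3. On chromosome 16 the Rad21 shares were 3.55, 3.66 and 3.53% in resting spleen and 4.01, 4.01 and 3.85% in CH12F3. For X, Rad21 gave 2.53, 2.70 and 2.11% in resting spleen, against 1.97, 2.25 and 1.94% in CH12F3, which overlap. Stimulated NIPBL shares on X were 1.75, 1.87 and 1.995% in spleen and 2.10 and 1.77% in CH12F3, which overlap as well. Of the 6 chromosomes without overlap in unstimulated NIPBL, 5 were separated the same way in stimulated cells and 4 with Rad21, and none the opposite way. Copy number of the chromosomes in CH12F3 was not analysed here, and its part in these shares was not tested.

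On chromosomes 14, 16 and X called bins and sites carried the same imbalance, and elsewhere they did not always. On chromosome 14, 2.26% of 707 tested bins were higher in spleen and 12.9% lower. Chromosome 16 had 2.83 and 13.5% of 741, and X 12.9 and 2.19% of 365. Over all tested bins the shares were 4.25 and 5.67%. Chromosome 8 was near these, with 4.75 and 5.70% of 1052, and chromosome 10 had 4.31 and 3.13% of 1021. On Y, 6 of 11 bins were higher and 0 lower. Chromosome 15, whose share of top peaks was not separated, had 3.98% of 879 bins higher and 9.78% lower. Chromosome 14 held 1.36% of splenic, 7.16% of CH12F3 and 5.57% of shared sites, and X held 5.89, 0.512 and 0.448% of them. With chromosomes 14, 16, X and Y left out of the wide-peak set, 699 bins were higher and 875 lower of 17818.

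**Figure D4:**
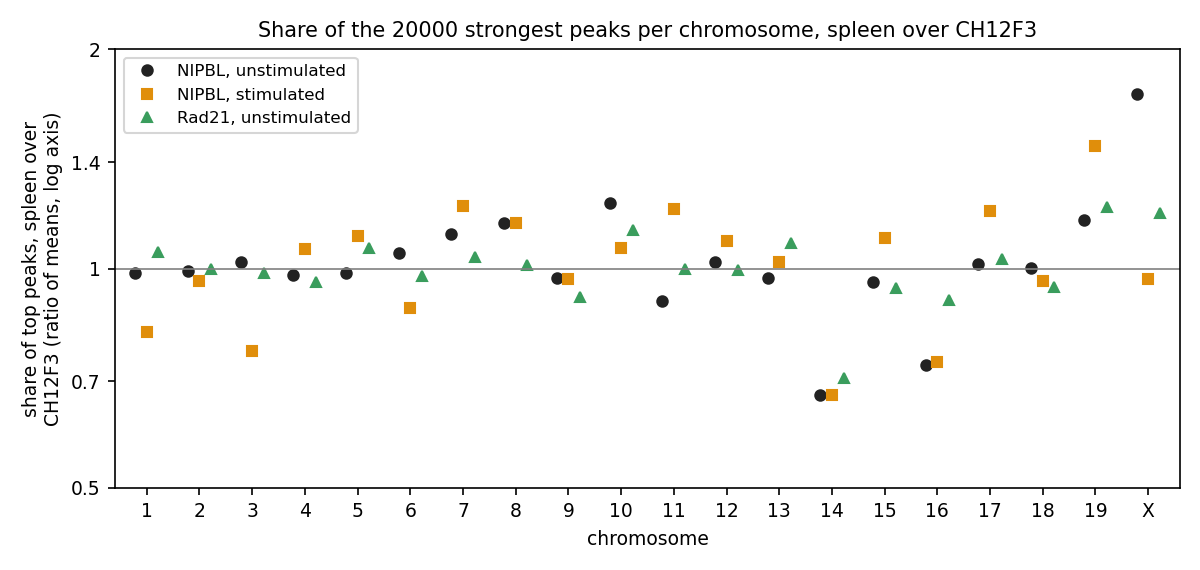
Share of the 20000 top peaks that lies on each chromosome, spleen over CH12F3 (ratio of group means, log axis), for unstimulated NIPBL, stimulated NIPBL and unstimulated Rad21. Chromosome Y, with 0.03 to 0.05% of top NIPBL peaks in resting spleen and 0.005% in CH12F3, is not drawn; chromosome 14 lies below 1 in all 3 sets, at 0.671 for unstimulated NIPBL.

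A few stretches held no NIPBL peak of any strength in 1 of the cells. Among runs of 10 kb bins of 50 kb or more, 8 stretches of 550 kb in all had no deposited peak in either CH12F3 list and a peak in all 3 splenic lists in at least 50% of the bins. In the opposite direction there were 2, of 100 kb in all, at 129960001 to 130010000 and 131820001 to 131870000 of chromosome 6. Of the 8, 3 lay on chromosome Y, 2 on X and 3 next to each other on chromosome 4. No stretch reached 100 kb. Without CH12F3 replicate 1 or 2 the first count was 45 or 39.

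The 3 stretches on chromosome 4 make a block of 25 bins at 88760001 to 89010000, looked at after its values were seen. Bins with a NIPBL peak numbered 21, 21 and 21 in resting spleen, against 2 and 2 in CH12F3, and peaks covered 6.40, 5.31 and 6.33% of it in resting spleen, against 0.124 and 0.256% in CH12F3. In stimulated cells 21, 20 and 21 bins had a peak in spleen, against 4 and 3 in CH12F3. Rad21 peaks were present in 16, 21 and 8 bins in resting spleen and in 0, 0 and 0 in CH12F3. In the 10 bins that follow, CH12F3 was no longer bare: 10, 9 and 9 had a NIPBL peak in resting spleen and 10 and 9 in CH12F3, and Rad21 was found in 6, 10 and 4 in resting spleen and in 8, 7 and 8 in CH12F3. In the 10 bins before the block, 9, 8 and 9 had a peak in resting spleen and 3 and 4 in CH12F3. Whether CH12F3 carries this DNA was not tested. On chromosome 6, the stretch at 129960001 had NIPBL peaks in 0, 0 and 0 of 5 bins in resting spleen and in 5 and 4 in CH12F3; stimulated cells gave 0, 0 and 0 in spleen and 5 and 5 in CH12F3.

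The region called IgH here, 114300001 to 114700000 of chromosome 12, was set around the locus that the series is about and was read bin by bin. It holds IgH constant region genes. In the RefSeq annotation of a later build (GRCm38.p6) these run from Igha and Ighe at lower coordinates through the Ighg genes to Ighd and Ighm at higher ones. Without mm9 annotation, it was not determined which bins of the region lie in these genes and which in flanking DNA. Of its 40 bins 18 had a top peak in 1 or more of the 5 libraries. Groups did not overlap in 5 of the 18, with spleen higher in 3 and lower in 2. Genome-wide 13.1 and 9.05% of tested bins were of that kind. Those bins had to be covered in 2 or more libraries, a stricter filter than for these 18, so the shares are not directly comparable. Each had p = 0.2 (two-sided exact permutation test, the smallest possible; adjusted p = 0.72 over 18 bins).

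The strongest difference lay toward the high-coordinate end. The bin 114660001 to 114670000 was covered to 54.4, 29.4 and 42.5% in resting spleen, against 6.14 and 0% in CH12F3, a difference of 39.0 points. The broadest peak there ran over 4250 bp in splenic replicate 3, and the only one in CH12F3 over 614 bp. Stimulated cells kept the difference, with 47.1, 45.0 and 29.9% in spleen and 0 and 0% in CH12F3. Rad21 top peaks covered 0, 0 and 13.7% of that bin in resting spleen and 0, 0 and 0% in CH12F3, which overlap. With all deposited NIPBL peaks the same bin had 58.9, 57.0 and 60.9% in resting spleen and 50.6 and 38.7% in CH12F3. The groups overlapped there in the wide-peak set, with 50, 39.0 and 56.7% in resting spleen and 42.9 and 12.0% in CH12F3, and with 40000 top peaks, with 54.4, 43.3 and 42.5% in resting spleen and 42.9 and 3.34% in CH12F3.

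The other bins of the region had smaller values. Splenic peaks covered 15.2, 9.30 and 14.5% of 114400001 to 114410000, against 0 and 0% in CH12F3, and in stimulated cells no more than 0.51% of that bin was covered in any library. At 114420001 to 114430000 resting spleen had 17.6, 6.52 and 11.2%, against 0 and 0% in CH12F3, and Rad21 had 6.92, 6.02 and 3.66% in resting spleen, against 0, 0 and 0% in CH12F3. These are bins where spleen was higher. At 114490001 to 114500000 NIPBL was lower in spleen, with 0, 0 and 0%, against 12.4 and 13.1% in CH12F3, and stimulated cells were alike, with 0, 0 and 0% in spleen and 9.24 and 14.1% in CH12F3. Rad21 ran the other way in that bin, with 7.63, 17.0 and 5.85% in resting spleen and 0, 0 and 0% in CH12F3.

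Which bins were separated depended on the peaks counted. With all deposited peaks the groups did not overlap in 19 of 40 bins, with spleen higher in 9 and lower in 10, where 16.5 and 19.0% of 255732 bins genome-wide were of that kind. All 10 where spleen was lower started between 114300001 and 114500001, and all 9 where it was higher between 114540001 and 114660001. Without CH12F3 replicate 1 or replicate 2 the number for top peaks was 8 or 13 in place of 5. A single CH12F3 library is separated whenever it is highest or lowest, so these counts cannot be set against the 5.

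**Figure D5:**
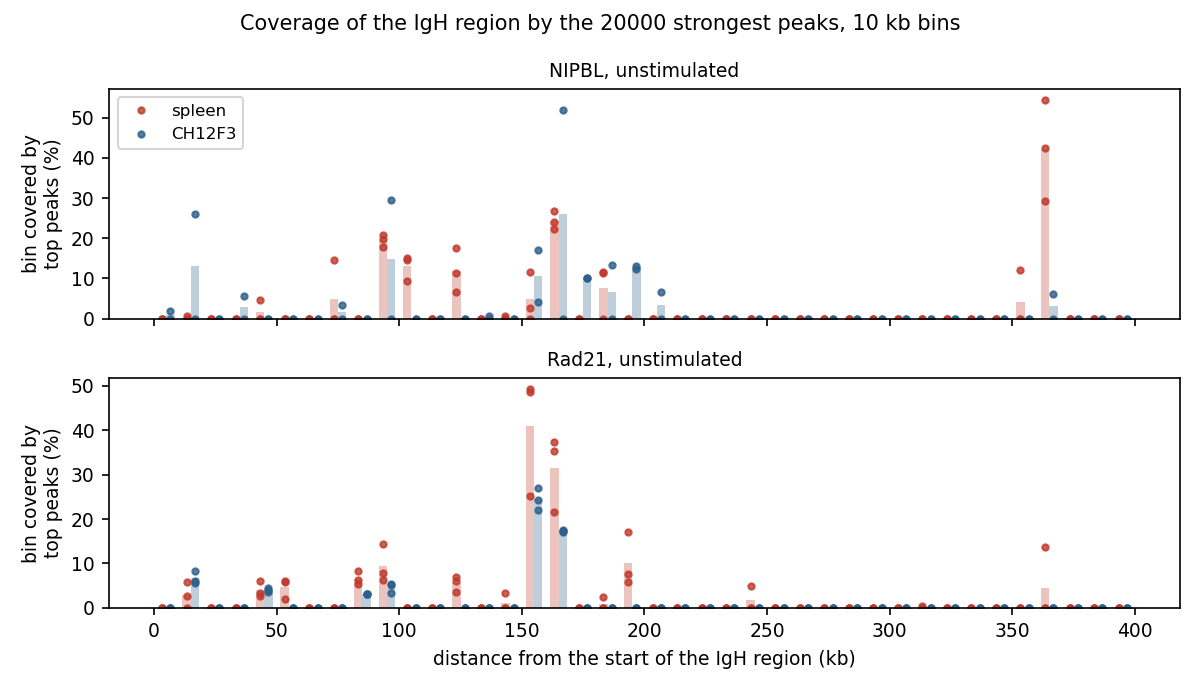
Percent of each 10 kb bin of the IgH region covered by top peaks, by distance from the region's start in kb, per library (points) with group means (bars), for unstimulated NIPBL and Rad21. The tallest NIPBL bin, toward the right end, reaches 54.4, 29.4 and 42.5% in spleen and 6.14 and 0% in CH12F3.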

How the data were processed

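Unstimulated NIPBL ChIP-seq peak lists of resting splenic B cells (n = 3) and CH12F3 cells (n = 2) were compared; stimulated NIPBL and unstimulated Rad21 lists, 11 in all, served as further readouts. The build is mm9 and the tools are Bowtie2 and MACS2, per the submitters' processing notes; the sources used here do not give their versions. Each library has a list of its own. The authors deposited 4 values per peak: fold enrichment (a ratio to the caller's background), -log10 p-value, -log10 q-value, and a score equal to 10 times the last of them, as a whole number. Peaks were ranked and described by these within 1 list only, and the score was not used. CH12F3 replicate 1 has no number in its title and was numbered by accession order.

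On 21 chromosomes, the 20000 peaks of highest -log10 p in a list were used, with ties ordered by fold enrichment and position. Percent coverage of 10 kb bins, in bins covered in 2 or more libraries, was tested with limma 3.58.1 (R 4.3.3, trend, only the groups compared) at a Benjamini-Hochberg adjusted p under 0.05. Single values were compared by two-sided exact permutation tests. Stimulated NIPBL and Rad21 had fits of their own, and the difference of differences between resting and stimulated cells a fit over all 4 NIPBL groups. Bins were named by rule: per direction the 10 largest called differences without overlap, or the 5 of smallest p where none was called, runs of 3 or more, the 5 widest sites per class and all IgH bins. Alternatives changed the number, width, strength or ranking of peaks, the bin size, the filter, the fit, the overlap and the libraries. The test was tested on simulated data. The compared groups, lists and rules were chosen with earlier results of these data known, and the selection of peaks of 500 bp or more after seeing the lists. Without mm9 annotation, promoters, gene lists and cell type markers were not analysed here, nor were the input samples. Other tools were scipy 1.17.1, statsmodels 0.14.6, pandas 2.3.3, numpy 2.4.6 and matplotlib 3.10.9 under Python 3.11.15.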

Additional observations from a re-analysis of the deposited data

Results flagged for a closer look

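Among the 27 bins that the naming rule chose, 4 had a difference between spleen and CH12F3 that was itself different in resting and in stimulated cells (limma, interaction of cell type and stimulation, adjusted p under 0.05). The rule chose bins by their resting difference, and the same resting values enter the interaction. A larger difference in resting cells is therefore favoured by the choice, and the 4 bins are a description. Over all tested bins this held for 1 higher and 2 lower of 30857 with top peaks and for 177 higher and 349 lower of 27246 in the wide-peak set. The stimuli and their lengths differ between spleen and CH12F3.

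On chromosome 14 at 15180001 to 15190000, top peaks covered 47.0, 47.0 and 46.5% in resting spleen, against 0 and 0% in unstimulated CH12F3, and 8.70, 7.90 and 9.39% in stimulated spleen, against 0 and 0% in stimulated CH12F3. The excess in spleen was 38.2 points larger in resting cells (adjusted p = 0.00816 by limma, and 0.0547 in the wide-peak set). All deposited peaks covered 36.2 and 20.2% of that bin in unstimulated CH12F3. With them the excess in spleen was 28.8 points in resting and 21.85 points in stimulated cells. On chromosome 9 at 77390001 to 77400000 the direction turned with top peaks: 0, 0 and 0% in resting spleen stood against 21.2 and 20.4% in unstimulated CH12F3, and 16.6, 17.7 and 16.2% in stimulated spleen against 0 and 0% in stimulated CH12F3. The difference of the differences was -37.6 points (adjusted p = 0.00536 by limma). In the wide-peak set that bin had 22.01, 16.8 and 15.4% in resting spleen, against 21.2 and 20.4% in unstimulated CH12F3, and the difference of the differences was -11.6 points (adjusted p = 0.543 by limma). With all deposited peaks it had 28.7, 19.6 and 17.5% in resting spleen, against 28.9 and 22.5% in unstimulated CH12F3, so neither the 0% nor the turn was seen beyond the top peaks.

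In the wide-peak set, the bin 72980001 to 72990000 of chromosome 15 had 67.8, 53.7 and 49.1% in resting spleen, against 0 and 10.3% in unstimulated CH12F3, and 3.03, 13.6 and 0% in stimulated spleen, against 18.2 and 0% in stimulated CH12F3. Resting cells gave a difference 55.2 points larger (adjusted p = 0.0458 by limma). Top peaks covered 61.8, 16.5 and 0% of this bin in resting spleen, against 0 and 0.52% in unstimulated CH12F3. The difference of the differences was then 24.85 points (adjusted p = 0.619 by limma). With all deposited peaks resting spleen had 72.4, 65.9 and 69.6%, against 68.7 and 33.9% in unstimulated CH12F3, which overlap. Rad21 wide peaks covered 47.2, 64.2 and 29.4% of the bin in resting spleen and 0, 0 and 0% in unstimulated CH12F3. On chromosome 11 at 79480001 to 79490000, 0, 0 and 0% in resting spleen stood against 44.6 and 35.5% in unstimulated CH12F3, and 3.84, 0 and 0% in stimulated spleen against 10.8 and 0% in stimulated CH12F3. Here the difference of the differences was -35.9 points (adjusted p = 0.031 by limma).

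In the IgH region, top peaks covered 0, 0 and 0% of the bin 114470001 to 114480000 in resting spleen, against 10.1 and 9.98% in unstimulated CH12F3, a difference of -10.045 points. In stimulated cells the order was the opposite, with 12.7, 8.64 and 12.1% in spleen, against 0 and 4.90% in CH12F3. This opposite direction was not tested, and it depended on the peaks counted. With 40000 top peaks the bin had 18.8, 2.97 and 2.5% in resting spleen, against 10.1 and 9.98% in unstimulated CH12F3, which overlap. Stimulated groups then overlapped too, with 12.7, 8.64 and 12.1% in spleen, against 10.1 and 4.90% in CH12F3. In the wide-peak set and with all deposited peaks both comparisons overlapped as well. With 10000 top peaks only the stimulated groups overlapped.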

How the results depend on the processing

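Counts of called bins and of sites moved with the peaks counted, and the cause was not tested. Top peaks gave 0 higher and 0 lower bins. The higher and lower counts were 733 and 150 with 10000 top peaks, 87 and 2704 with all deposited peaks, 828 and 574 with equal covered length, 129 and 761 with a -log10 q of 5 or more, 3 and 1 with 5 kb bins, and 367 and 306 with all NIPBL groups in 1 fit. Leaving out 1 library gave 0 to 1439 higher and 0 to 41 lower. With 40000 top peaks, ranking by fold enrichment, array weights, or bins covered in 1 or more libraries they stayed at 0 and 0. In the wide-peak set 835 were higher and 1114 lower, 785 and 829 with all NIPBL groups in 1 fit, 699 and 875 without chromosomes 14, 16, X and Y, 1032 and 694 without splenic replicate 2, 1006 and 665 without splenic replicate 3, and 0 and 0 without any of the other 3 libraries. Of the wide-peak calls, 62 higher and 39 lower bins were also called with equal covered length (7.43 and 3.50% of them), 91 and 314 with a -log10 q of 5 or more, and 594 and 636 with all NIPBL groups in 1 fit on wide peaks (71.1 and 57.1%).

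Site counts are given in the order splenic, CH12F3, shared. They were 16816, 78899 and 111068 with all deposited peaks, 2920, 10742 and 13381 with a -log10 q of 5 or more, and 1539, 1449 and 8410 in the wide-peak set. CH12F3 sites numbered 846 with 40000 top peaks, and shared sites 2026 with 10000 and 4709 with 40000. With 1 library left out, splenic sites numbered 1159 to 5104, CH12F3 sites 410 to 16088 and shared sites 3134 to 7096. The 50% overlap does not bear on these counts, which use merged peaks.

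Mean overlap within spleen was 71.8% with 10000, 28.5% with 40000 and 22.2% with all deposited peaks, and 66.5% in the wide-peak set. Within CH12F3 it was 26.2, 16.1, 32.2 and 59.9% in the same order, and 18.3% where 50% of a peak had to overlap. Between the cells it was 55.1% in the wide-peak set. With all deposited peaks CH12F3 lists thus shared more than splenic lists did.

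Chromosomes without overlap numbered 10 with 40000 top peaks, 17 with all deposited peaks, 18 in the wide-peak set and 7 to 15 with 1 library left out. Stretches without a CH12F3 peak numbered 0 at 100 kb or more, 5 over all 4 CH12F3 NIPBL lists and 11 to 45 with 1 library left out; those without a splenic peak numbered 0 at 100 kb or more and 2 with each library left out. IgH bins without overlap numbered 3 with 10000 and 2 with 40000 top peaks, 19 with all deposited peaks, 7 in the wide-peak set and 5 to 13 with 1 library left out. Groups of fewer libraries are more easily separated. Counts without overlap with 1 library left out therefore cannot be set against those from all libraries.

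Among called bins, those called in the same direction with Rad21 are given out of the bins tested, with the shares over all bins in brackets. With 10000 top peaks they were 38 of 120 higher and 7 of 33 lower bins (10.9 and 13.9%). With all deposited peaks they were 36 of 81 and 43 of 2402, which is 44.4 and 1.79% (1.18 and 0.101%). For the wide-peak set, with Rad21 top peaks, they were 128 of 314 and 103 of 382 (10.0 and 13.8%). In stimulated NIPBL they were 246 of 473 higher and 10 of 73 lower bins with 10000 top peaks (27.8 and 1.32%). Of these 73 lower bins, 9 were called the opposite way. With all deposited peaks they were 33 of 87 and 58 of 2704 (0.0497 and 0.0458%). In the wide-peak set they were 368 of 679 and 132 of 651 (7.68 and 4.28%).

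For the 27 named bins, 497 values under other settings were compared: 226 kept direction and side of the threshold, 61 passed it newly, 204 no longer passed and 6 turned. Those that turned were 19940001 of chromosome 8 (-8.54 points with equal covered length), 35390001 of chromosome 17 (1.17 with 10000 top peaks, 1.05 with equal covered length, 2.52 without CH12F3 replicate 1), 32120001 of chromosome 11 (4.23 without CH12F3 replicate 1) and 114030001 of chromosome 12 (0.01 without CH12F3 replicate 1). Without CH12F3 replicate 2 the values of the last 3 bins were -7.91, -68.6 and -54.0 points.

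Replicate numbers 1 and 2 are shared between the groups, but nothing in the labels ties them and CH12F3 replicate 1 has no number in its title. Deviations of same-numbered libraries correlated at 0.278 and 0.16 over bins. With the replicate number as a block, 0 bins were higher and 0 lower (lowest adjusted p = 0.464 by limma).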

Other observations

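Counting all deposited peaks in windows of 5 Mb, chosen after the values were seen, resting spleen and unstimulated CH12F3 did not overlap in 474 of 520 windows, with spleen higher in 280 and lower in 194. The measure was relative coverage, the covered share of a window divided by the same library's mean over all bins, so that 1 is the library's own average. The highest ratio outside chromosome Y was at 20000001 to 25000000 of chromosome 15, where relative coverage was 0.806, 0.870 and 0.894 in resting spleen, against 0.119 and 0.158 in CH12F3, a ratio of 6.19. The neighbouring window from 15000001 had a ratio of 4.75. Rad21 gave a relative coverage of 0.261, 0.682 and 0.161 in the first window in resting spleen, against 0.0108, 0.0229 and 0.0186 in CH12F3. Stimulated NIPBL gave 0.391, 0.399 and 0.483 in spleen, against 0.152 and 0.144 in CH12F3. Spleen was thus near its average there with unstimulated NIPBL and below it in the other libraries, and CH12F3 was far below its own in every library.

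The lowest ratio was at 30000001 to 35000000 of chromosome 14, with a relative coverage of 1.22, 1.16 and 1.18 in resting spleen, against 2.44 and 2.32 in CH12F3, a ratio of 0.499. Rad21 there was 1.28, 1.08 and 1.23 in resting spleen, against 3.12, 3.68 and 3.35 in CH12F3. The 3 lowest windows all lay on chromosome 14.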
